A study of Mus musculus with 2 samples.

Results

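Inhibitory neurons of the mouse locus coeruleus, the pontine nucleus of noradrenergic cells, were taken here as barcodes carrying the messenger RNA for making or packaging GABA. A barcode qualified with at least 2 unique molecular identifiers (UMIs, 1 per captured mRNA molecule) of Gad1, Gad2 and Slc32a1 together, and at least 5 of them per 10000 of its UMIs. It also had to hold no Slc17a6 UMI and fewer than 10 UMIs of Dbh, Slc6a2, Slc18a2 and Th per 10000. Members were thus chosen by measured UMIs of these genes, among barcodes with 300 or more genes seen and a mitochondrial share of 20% or less. The rule found 165 of 3035 such barcodes, of 3100 deposited. Library 1 gave 28 of 295 and library 2 gave 137 of 2740. The study prepared 2 droplet libraries, batch 1 and batch 2. Their mice were untreated, of the strain C57BL/6N and wild type in genotype, 3 to 4 weeks old, and both sexes were used. The labels describe both dissociated, methanol-fixed cells and isolated nuclei without saying which library holds which, so "cell" below stands for either. How many mice went into each library, and whether they were pooled, is not stated.

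GABA is made from glutamate by the decarboxylases encoded by Gad1 and Gad2, and is loaded into vesicles by the transporter encoded by Slc32a1. Glycine uses the same vesicular transporter, and neurons that release it are recognised by Slc6a5, which brings glycine into the terminal. Inhibitory neurons in and around the locus coeruleus make synapses on the noradrenergic cells and slow their firing. In the developing hindbrain and spinal cord, inhibitory lineages are marked by 2 sets of transcription factors, Pax2 with Lhx1 and Lhx5 in one, and Gata2, Gata3, Tal1 and Sox14 in the other.

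Slc6a5, Pax2 and Lhx1, none of them used by the rule, rose together in the inhibitory neurons. The 250 bases before a transcription start of each are shown because these 3 genes carry that result. They are RefSeq promoter sequences of the build GRCm38.p6, read 5′ to 3′ on the gene's strand, and capitals mark the one motif found.
Slc6a5 promoter, chr7:49910049-49910298, plus strand: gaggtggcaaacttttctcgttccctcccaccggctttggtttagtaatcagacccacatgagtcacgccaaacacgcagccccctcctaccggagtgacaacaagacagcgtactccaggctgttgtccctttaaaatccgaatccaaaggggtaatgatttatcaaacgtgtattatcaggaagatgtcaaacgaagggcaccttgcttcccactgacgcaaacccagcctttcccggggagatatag
Pax2 promoter, chr19:44755502-44755751, plus strand: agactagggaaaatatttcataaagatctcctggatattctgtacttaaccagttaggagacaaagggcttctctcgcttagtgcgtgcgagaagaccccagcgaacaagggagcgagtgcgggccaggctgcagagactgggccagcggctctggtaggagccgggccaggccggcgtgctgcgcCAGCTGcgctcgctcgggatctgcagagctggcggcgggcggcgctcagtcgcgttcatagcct
Lhx1 promoter, chr11:84525535-84525784, minus strand: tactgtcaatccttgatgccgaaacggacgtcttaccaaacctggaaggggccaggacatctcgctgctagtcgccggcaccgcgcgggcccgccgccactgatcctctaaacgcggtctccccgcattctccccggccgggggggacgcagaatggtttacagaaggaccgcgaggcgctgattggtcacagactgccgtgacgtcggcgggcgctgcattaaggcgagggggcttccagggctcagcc
The motifs searched were TAATTA, a homeodomain core, CAGCTG, an E-box of basic helix-loop-helix factors, and the palindromic nuclear factor I site, TTGGC and GCCAA with 5 free bases between them. Each reads the same on both strands and none overlaps another. RefSeq gives 3 Pax2 windows and 2 Slc6a5 windows, of which the one nearest the annotated start of the gene is shown. CAGCTG occurred once in the Pax2 window shown and in neither of the others, and 13.01% of 32817 promoters of this length held it. TAATTA was in 4.85% of them and the nuclear factor I site in 0.04%, and neither was in these 3 windows. CpG dinucleotides numbered 11, 20 and 26 and the GC content was 50.4%, 60.8% and 64.8% in the Slc6a5, Pax2 and Lhx1 windows. The Lhx1 window also holds the annotated start of Lhx1os, which is transcribed the other way from chr11:84525660-84535831. A matched letter string describes the window and shows no binding.

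The gate genes themselves chose the cells, so their values are a description. Gad2 was at 584.7 CPM (UMIs of the gene over all UMIs summed in the class, on the usual CPM scale) in library 1 and at 654.5 CPM in library 2. Gad1 was at 328.0 and 338.3 CPM and Slc32a1 at 175.9 and 170.3 CPM. Levels of different genes are not compared here, since capture of the 3′ end differs by gene. In cells, Gad2 had a UMI in 147 of the 165, Gad1 in 104 and Slc32a1 in 76, and all 3 were present in 45. The median cell of library 1 carried 14 gate UMIs and that of library 2 carried 3, beside median totals of 14168 and 2893 UMIs. In library 1 all 3 genes were seen in 19 of 28 cells (67.9%, exact 95% interval 47.7 to 84.1), and in library 2 in 26 of 137 (19.0%, 12.8 to 26.6). These intervals cover counting error only, and the libraries differ in depth. Cells with a single gate gene were mostly Gad2 cells of library 2, where 39 of 137 held no UMI of Gad1 or Slc32a1.

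The edge of the rule lay among shallow cells. In library 2, 55 members held exactly 2 gate UMIs, and 82 barcodes just outside held 1 gate UMI at 5 or more per 10000. A further 3 and 8 barcodes fell short at 4 to 5 gate UMIs per 10000. Barcodes that met the gate but carried Slc17a6 numbered 4 and 5, and 1 in library 2 was set aside for its noradrenergic genes. The comparison class, called other neurons, was all other barcodes with at least 100 UMIs of Meg3, Snap25, Syt1 and Snhg11 per 10000. It held 138 and 942 cells, of which 37 and 162 carried at least 1 gate UMI, and so some inhibitory cells of low count. Among the members, 6 in each library lay below that neuronal floor, down to 0 UMIs of its genes in library 2. The rule asks the floor of other neurons alone. A pan-neuronal list of 10 genes summed to 15250 and 18606 CPM in members against 19338 and 21026 CPM in other neurons. Of its 6 genes outside the rule, Uchl1 and Tubb3 fell and 2 had a positive difference (median log2 difference -0.992).

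The label was checked against genes the rule did not use and against markers of other cells. Slc6a5 had a UMI in 25 members, so the word glycinergic rests on these 25 of 165 cells, and the rule itself gave them a gate gene. Phox2a, a defining factor of noradrenergic cells, had no UMI in any member. The rule already caps other noradrenergic genes in members, so this absence is no independent check. The cholinergic list of 5 genes summed to 4.8 and 2.2 CPM against 120.5 and 97.6 CPM in other neurons, with Chat and Slc18a3 at 0. Slc18a3 was at 0 also in the other neurons of library 1. The serotonergic list of 6 genes summed to 23.8 and 66.3 CPM against 74.5 and 96.6 CPM, with Slc6a4 and Fev at 0 and up to 20.7 UMIs per 10000 in a member. Fev was at 0 also in the other neurons of both libraries. The Purkinje list of 7 genes had UMIs in 22 of 28 and 54 of 137 members and summed to 176 and 181 CPM against 279 and 281 CPM, with up to 33.0 per 10000 in a member, and its gene Pcp2 was at 0 also in the other neurons of library 1. The granule cell list of 8 genes summed to 57.0 and 50.9 CPM against 218 and 170 CPM, with Cbln3 at 0 and up to 16.5 per 10000 in a member. The sum of each of these 4 lists was lower in members than in other neurons in both libraries, and none was absent. The sums did not stand for every gene. Among genes tested, 2 of 3 serotonergic and 3 of 5 granule cell genes had a positive difference from other neurons. Their list medians were 0.149 and 0.144 on the log2 scale. For the cholinergic list 0 of 2 and for the Purkinje list 1 of 5 were positive, with medians of -6.33 and -0.712. Dlx2 and Dlx5, factors of forebrain interneurons, were at 0 in both libraries and Dlx1 had 1 UMI. The cerebellar interneuron list of 7 genes summed to 1172 and 1108 CPM in members against 821 and 974 CPM in other neurons. A gene was called at an edgeR Benjamini-Hochberg adjusted p below 0.05, as 3.81% of all tested genes were. Of the list's genes Nxph1 and Ptprk rose, Lypd6 fell, Kit, Sorcs3 and Tfap2b were not called, and Prkcd was too low to test. The part of all these cells in the results was not tested. The oligodendrocyte list stood higher in the members, with its 8 genes summing to 739 and 524 CPM against 229 and 411 CPM in other neurons. All 7 of its tested genes had a positive difference, median 1.51 on the log2 scale, and none was called. UMIs of the list reached 96.8 and 174 per 10000 in the highest member of each library, while 2 and 53 members had no UMI of myelin genes such as Mbp, Mog and Mag. Without cells at 10 or more UMIs of myelin genes per 10000, an alternative added after the data were seen, the log2 differences were 3.88 for Pax2, 3.77 for Slc6a5 and 3.25 for Zfpm2.

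Free RNA was gauged with cells passing an oligodendrocyte gate, which should lack these genes, after thinning every cell to 1000 UMIs. That gate did not leave out members. Before thinning, its cells reached 19 gate UMIs and 9.02 per 10000 in library 1, enough for the rule's gate, and at most 1 gate UMI in library 2. The library 1 shares are therefore not a clean gauge of free RNA. Thinning left out 5 members and 173 oligodendrocyte-gate cells of library 2. Gad2 was then seen in 10 of 28 and 68 of 132 members, against 1 of 41 and 3 of 606 oligodendrocyte-gate cells. Before thinning the medians were 14168 and 2893 UMIs in members and 9846 and 1424 in oligodendrocyte-gate cells, and Gad2 was in 1 of 41 and 6 of 779 of the latter. Slc6a5 was in 4 of 28 and 5 of 132 thinned members and in none of the oligodendrocyte-gate cells, which allows up to 7.32% and 0.495% there. Pax2 was in 3 and 4 thinned members, Lhx1 in 0 and 9 and Lhx5 in 1 and 5, with none in the oligodendrocyte-gate cells. Abat, which breaks GABA down, was in 7 of 28 and 17 of 132 members but in 17 of 138 and 100 of 877 other neurons.

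**Figure D1:**
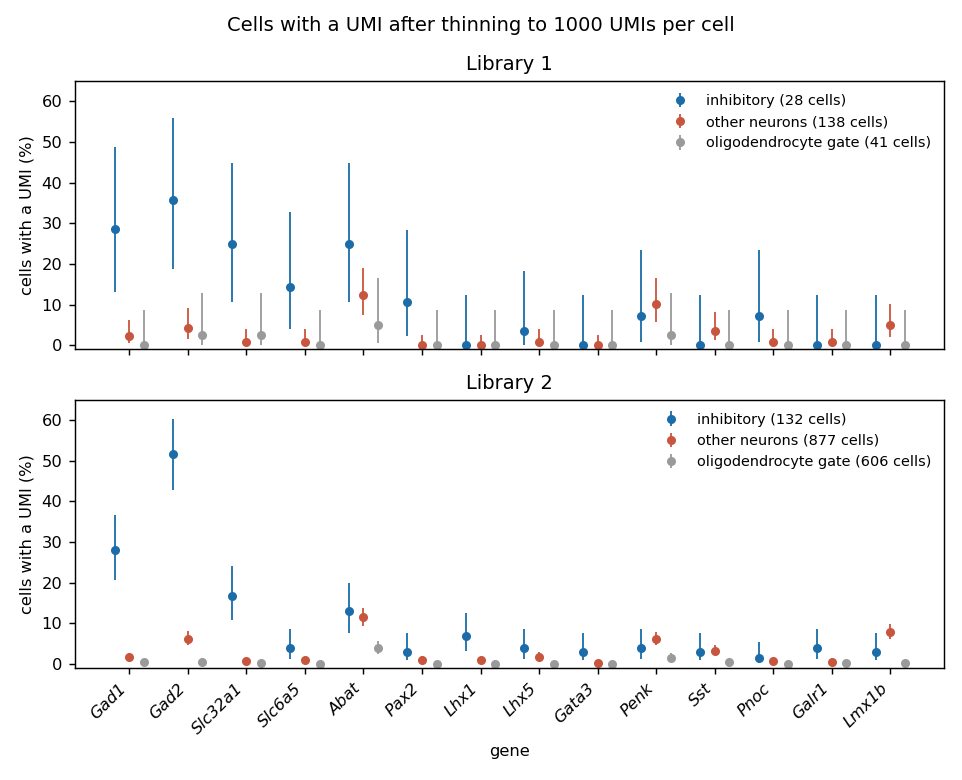
Share of cells with at least 1 UMI of each gene (percent) after thinning to 1000 UMIs per cell, in inhibitory neurons, other neurons and oligodendrocyte-gate cells of each library; points are shares and bars exact 95% binomial intervals. Gad2 reached 51.52% of the thinned members in library 2 and 0.5% of oligodendrocyte-gate cells, while the intervals of Abat overlapped between classes in library 1.

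Against other neurons, the inhibitory neurons were set apart by lineage factors, the glycine transporter and a small group of synaptic and calcium channel genes. Pax2, Lhx1, Lhx5 and the GATA cofactor Zfpm2 were about an order of magnitude higher. Nuclear factor I genes rose with them, as did the calcium channel subunit Cacna2d3 and the presynaptic adhesion gene Nrxn3. All 4 noradrenergic markers tested fell, as did 5 of 7 trigeminal markers, 5 of 15 peptide precursor genes, Cacna2d1 and 4 GABA-A receptor subunits. The rule caps noradrenergic genes in members and not in other neurons, so the fall of those 4 markers is not independent of it. UMIs were summed per class and library, to 420729 and 452225 in members and 3891559 and 3748465 in other neurons, and compared with edgeR's quasi-likelihood test with the library as a block. Of 11241 genes tested outside the rule, 159 were higher (1.41%) and 269 lower (2.39%) at a Benjamini-Hochberg adjusted p below 0.05. All 428 called genes (3.81%) had the same sign in both libraries. The median difference of all genes was -0.001 on the log2 scale. The fit leaves 1 residual degree of freedom, and its spread, shared across genes, is that between 2 libraries and may be technical.

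**Figure D2:**
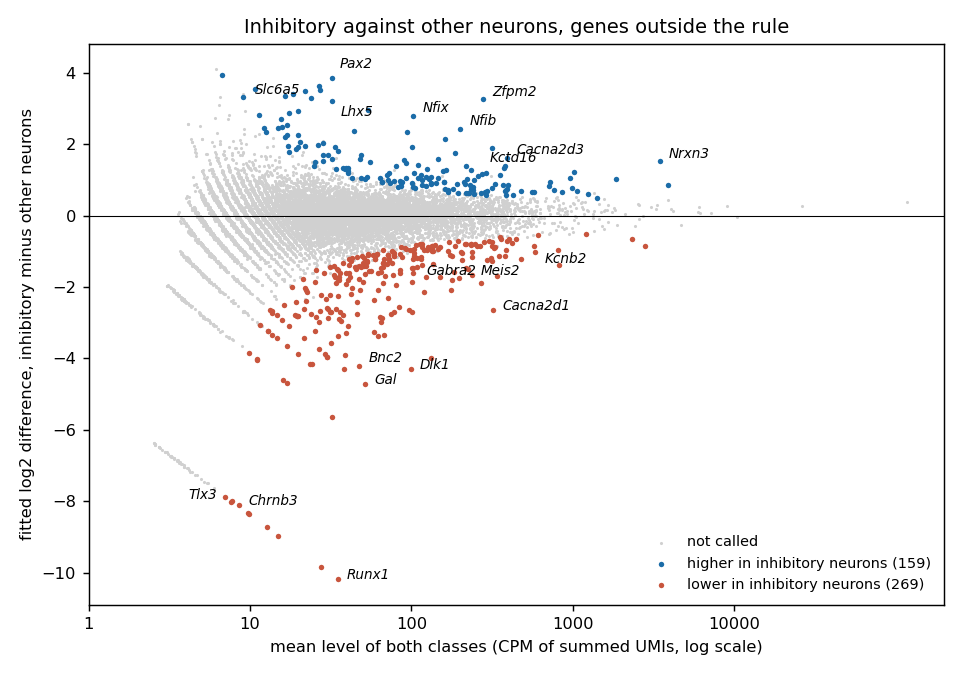
Fitted log2 difference (inhibitory minus other neurons) against mean level of both classes (CPM of summed UMIs, log scale) for the 11241 genes tested. Blue points (159) were higher and red points (269) lower, grey points were not called, and the separate strip at the bottom holds genes with no UMI in the members, whose fitted values depend on the prior count.

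Lineage factors were among the largest rises. Pax2 (chr19:44756045-44837871, plus strand, GRCm38), a paired-box factor of inhibitory interneurons, was at 68.9 and 50.9 CPM in the members of libraries 1 and 2 and at 3.08 and 5.60 CPM in other neurons. The lower member value was far above the higher of the others, and the log2 difference was 3.85 ± 0.42 (SE; edgeR adjusted p = 0.00149). Its 52 UMIs came from 11 and 16 members, with at most 6 in a cell. Lhx1 (chr11:84518284-84525535, minus strand), a LIM homeodomain factor, was at 23.8 and 61.9 CPM against 2.57 and 6.40 CPM. Lhx5 (chr5:120431699-120441223, plus strand), its close relative, was at 52.3 and 61.9 CPM against 3.85 and 9.34 CPM. Both rose without overlap between classes, by 3.30 ± 0.40 and 3.21 ± 0.38 (edgeR adjusted p = 0.00251 and 0.00230). The neighbouring Lhx1os, 124 bases from Lhx1, rose by 3.36 ± 0.51.

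Zfpm2 (chr15:40655035-41104592, plus strand), a zinc-finger protein that binds GATA factors, had the deepest counts of these genes. It was at 487 and 517 CPM in members against 41.1 and 71.2 CPM, a log2 difference of 3.26 ± 0.19 (edgeR adjusted p = 0.000206). It had a UMI in 22 of 28 and 64 of 137 members, and in 37 of 138 and 121 of 942 other neurons. By the same test Gata3 was not called. It had 4 and 6 UMIs in members and 0 and 5 in other neurons (log2 difference 4.10 ± 1.04, edgeR adjusted p = 0.0636), and all 4 UMIs of library 1 lay in 1 cell. Gata3 passed the threshold under 10 alternative settings, among them RLE normalization (adjusted p = 0.0444) and 2 of the 3 gate genes per cell (0.000910). Of the 27 hindbrain inhibitory lineage factors listed, 13 were tested, 4 rose and Pax5 fell, with a median of 1.27. Pax5, a paired-box relative used early at the midbrain-hindbrain boundary, had 0 and 3 UMIs in members against 174 and 253 in other neurons. Gata2, Tal1, Tal2, Sox14, Ptf1a and Pax8 were below the low-count filter, with 7 UMIs in members between them.

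Nuclear factor I genes, transcription factors of late neuronal differentiation, followed. Nfix (chr8:84699876-84800344, minus strand) was at 124 and 232 CPM against 15.2 and 39.8 CPM and rose by 2.79 ± 0.20 (edgeR adjusted p = 0.000408). Nfib was at 299 and 369 CPM against 41.9 and 93.9 CPM and rose by 2.43 ± 0.21. With cells thinned to 500 UMIs its difference was 0.847 and not called. In cells, Nfib was seen in 16 of 28 and 60 of 137 members, against 34 of 138 and 173 of 942 other neurons. Nfia rose by 1.58 ± 0.27, while Nfic, at 49.9 and 68.6 CPM against 103 and 92.0 CPM, was not called. The list of regional and late factors gave 6 higher and 2 lower of 23 tested (median 0.117). Its other rises were Nr2f2, Satb1 and Foxp2, by 1.69, 1.59 and 1.01. Bnc2 and Onecut2 fell, from 97.4 and 83.5 to 4.75 and 4.42 CPM and from 37.3 and 72.0 to 7.13 and 8.85 CPM. Prox1, a homeobox factor of several interneuron types, was at 19.0 and 37.6 CPM against 1.03 and 9.87 CPM and rose by 2.54 ± 0.56. Meis2, a homeobox cofactor, fell by 1.66 ± 0.20 from 359 and 366 to 135 and 84.0 CPM, with 28 of its 57 member UMIs of library 1 in 1 cell. Excitatory lineage factors mostly went the other way, with 5 lower, among them Lmx1b, Phox2a, Tlx3 and Pou4f1, and 2 higher of 12 tested (median -2.24). Tlx3 was at least 4.38-fold lower, against a floor of 3 counts over both libraries of members. The 2 rises were Ebf3, by 1.38 ± 0.14, and Neurod2, by 2.26 ± 0.50. The calls for Prox1 and Tlx3 were lost with the stricter gate of 3 UMIs and 10 per 10000, and DESeq2 gave no adjusted p for Phox2a, Tlx3 and Pou4f1.

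**Figure D3:**
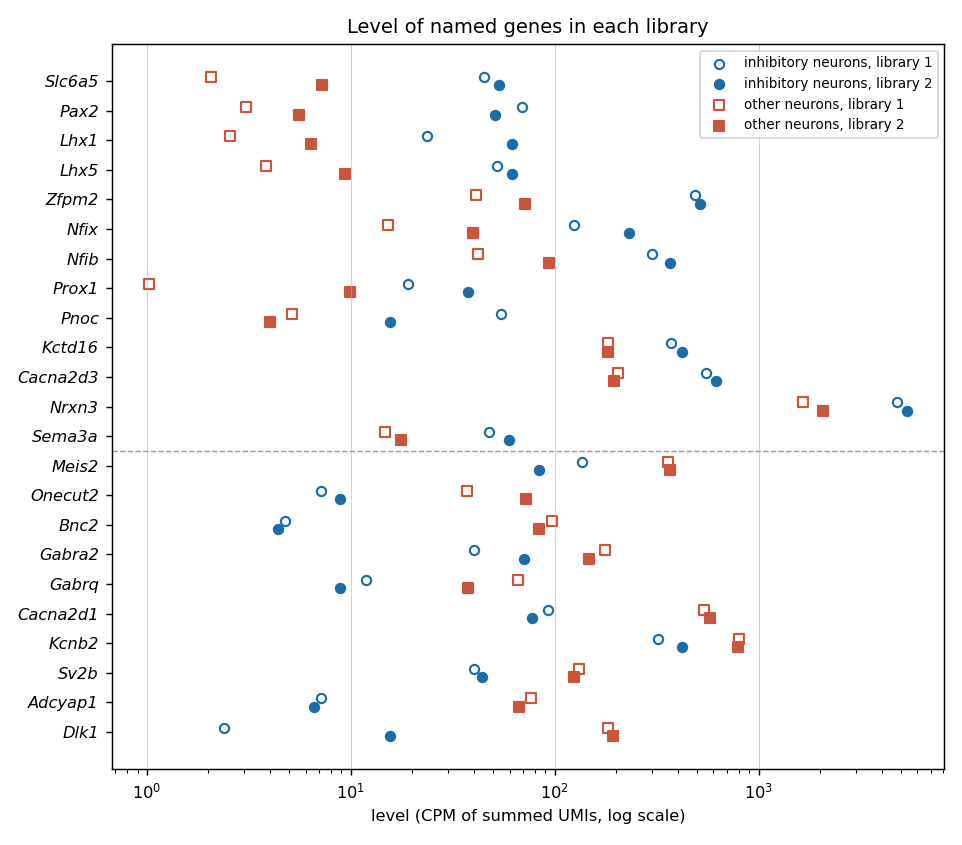
Levels (CPM of summed UMIs, log scale) of 23 named genes in inhibitory neurons (circles) and other neurons (squares), open for library 1 and filled for library 2; genes above the dashed line rose and those below it fell. For each gene the 2 circles lie on one side of the 2 squares, closest for Kcnb2 at 422 against 795 CPM.

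Of the transmitter genes outside the gate, the glycine transporter stood apart. Slc6a5 (chr7:49910146-49963856, plus strand) was at 45.2 and 53.1 CPM in members and 2.06 and 7.20 CPM in other neurons. It rose by 3.52 ± 0.46 (edgeR adjusted p = 0.00329), without overlap, from 19 UMIs in 8 cells of library 1 and 24 UMIs in 17 cells of library 2. The 10 tested genes of GABA synthesis, transport and breakdown had a median difference of 0.518. Abat was at 188 and 172 CPM against 141 and 115 CPM (0.57 ± 0.15, edgeR adjusted p = 0.0783) and passed in 8 alternatives, among them 0.985 and adjusted p = 0.00385 with the stricter gate. Slc38a1, a glutamine carrier, was at 228 and 363 CPM against 199 and 230 CPM and was not called. Of 5 tested genes of glycine handling, Slc6a5 alone was called. Slc6a9, the glial glycine transporter, was at 14.3 and 6.63 CPM against 7.45 and 12.5 CPM, with overlapping classes.

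Receptors for the inhibitory transmitters did not rise as a group. Of 13 GABA-A subunit genes tested, 4 fell and none rose (median -0.336). Gabra2, an alpha subunit, was at 40.4 and 70.8 CPM against 176 and 147 CPM and fell by 1.45 ± 0.24. Gabrq and Gabre, the theta and epsilon subunits found in monoaminergic nuclei, fell by 2.22 ± 0.36 and 2.04 ± 0.42, and Gabrg1 fell by 1.53 ± 0.36 (edgeR adjusted p = 0.0483). Gabrq and Gabre were not called once cells high in noradrenergic, granule cell or Prph and Pou4f1 UMIs were left out of the other neurons, and Gabrq, Gabre and Gabrg1 were not called in DESeq2. Gabrb2, a main synaptic subunit, was not called. Kctd16, an auxiliary subunit of the GABA-B receptor, was at 373 and 420 CPM against 183 and 183 CPM and rose by 1.19 ± 0.13 (edgeR adjusted p = 0.00196). None of 4 glycine receptor subunits was called, and Glra1 stood at 92.7 and 86.2 CPM against 46.3 and 56.8 CPM (0.87 ± 0.21, edgeR adjusted p = 0.0558). None of 13 postsynaptic and chloride transport genes was called either (median 0.209). Among these Slc12a5, the chloride exporter of mature neurons, was at 240 and 228 CPM against 151 and 170 CPM, and Gphn, the gephyrin scaffold, at 4331 and 2848 CPM against 3394 and 2713 CPM.

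Peptide genes were mostly scarce in the inhibitory neurons. Of 51 precursor genes listed, 15 were tested, 1 rose and 5 fell (median -1.30). Pnoc, which encodes nociceptin, was at 54.7 and 15.5 CPM against 5.14 and 4.00 CPM and rose by 2.94 ± 0.49 (edgeR adjusted p = 0.0116). Its 23 UMIs in library 1 came from 7 cells, 9 of them from 1 cell, and its 7 UMIs in library 2 from 7 cells. Adcyap1, Calca, Tac1, Gal and Crh fell. Gal, the galanin gene named in the title of the series, had 1 and 2 UMIs in members against 587 and 182 in other neurons, a pooled ratio of 0.0341 (counting interval 0.00703 to 0.100). Penk, the enkephalin precursor, was at 112 and 33.2 CPM against 66.3 and 49.9 CPM and was not called. It was seen in 8 of 28 and 11 of 137 members. Sst was at 35.6 and 39.8 CPM against 27.2 and 22.4 CPM, also not called, in 6 and 11 members. Penk and Sst shared 2 cells, Penk and Pnoc 5. Npy had 5 UMIs in 1 member of library 1 and 0 in library 2.

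Of 17 tested neuropeptide receptors, Calcr and Tacr1, the receptors for calcitonin and substance P, fell and none rose. The call for Calcr was lost in DESeq2 and, at -1.61, without cells high in noradrenergic, granule cell or Prph and Pou4f1 UMIs among the other neurons. Tacr1 was at 9.51 and 8.85 CPM against 59.9 and 57.9 CPM and fell by 2.60 ± 0.36. The galanin receptor Galr1 had 4 and 10 UMIs in 2 and 6 members (9.51 and 22.1 CPM) against 7.97 and 7.20 CPM and was not called. Oprm1 was at 9.51 and 55.3 CPM against 50.4 and 37.9 CPM, so its libraries disagreed in direction. Among 21 amine and acetylcholine receptors, the serotonin receptor Htr2c rose, from 206 and 257 to 295 and 425 CPM (0.70 ± 0.14, edgeR adjusted p = 0.0237). In library 1, 52 of its 124 UMIs came from 1 cell. The nicotinic subunit Chrnb3 was at least 4.95-fold lower. The noradrenaline autoreceptor Adra2a was at 14.3 and 0 CPM against 15.9 and 11.7 CPM, not called. The calls for Htr2c and Chrnb3 were lost with the stricter gate and without the block, and that for Htr2c also in DESeq2, which gave no adjusted p for Chrnb3.

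Most ion channel and adhesion genes tested, 39 of 46 and 32 of 39, were not called. Calls were more frequent in these lists than the 3.81% over all tested genes. The lists were chosen with earlier results of these data known, and 46 of 46 and 39 of 40 genes passed the low-count filter. The higher share is therefore no test of enrichment. Of 46 channel genes tested, 5 rose and 2 fell (median -0.002). Auxiliary calcium channel subunits went opposite ways. Cacna2d1 was at 92.7 and 77.4 CPM against 538 and 576 CPM and fell by 2.64 ± 0.18 (edgeR adjusted p = 0.000339), while Cacna2d3 was at 554 and 615 CPM against 204 and 195 CPM and rose by 1.62 ± 0.13 (edgeR adjusted p = 0.000631). Cacna2d2 rose by 0.75 ± 0.16, a call lost in DESeq2 and without the block. The potassium channel Kcnb2 fell by 1.03 ± 0.14, and Kcnd2 and Scn1a rose by 0.69 and 0.59. Kcnc1, a channel of fast-firing neurons, was at 238 and 146 CPM against 105 and 136 CPM and was not called. Nrxn3 (at 4766 and 5309 CPM against 1651 and 2057 CPM) rose by 1.52 ± 0.13 (edgeR adjusted p = 0.000662). With Nrxn3, Sema3a, Unc5c, Slit3, Cntn4 and Cntn5 made 6 rises among 39 adhesion and guidance genes tested, and Cbln2 fell, though not in DESeq2. Unc5c, a netrin receptor, rose by 1.13 ± 0.13. Its ligand gene Ntn1 rose by 3.40 ± 0.58, but from only 4 and 7 members. Of the 24 glutamate receptor genes, Grin2c, Gria1 and Grm5 rose and Grm8 and Grik1 fell. The calls for Gria1 and Grik1 were lost in DESeq2, without the block and with the stricter gate, where Gria1 was at 0.123. Grin2c was at 45.2 and 15.5 CPM against 4.37 and 4.00 CPM, with 9 of its 19 UMIs of library 1 in 1 cell. Sv2b and Slc17a7, genes of glutamate release, fell by 1.52 ± 0.21 and 2.98 ± 0.45.

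The remaining genes named for size were of mixed function. Slc30a3, a zinc transporter of synaptic vesicles, was at 35.6 and 44.2 CPM against 4.11 and 3.20 CPM and rose by 3.50 ± 0.43. St18, a zinc-finger factor, rose by 2.96 ± 0.48, but 23 of its 40 UMIs in library 1 were in 1 cell, and DESeq2 did not call it. Runx1 was at least 20.3-fold lower, Lef1 at least 8.65-fold and Ctxn1 at least 7.43-fold, each with no UMI in any member. DESeq2 did not call Runx1 (adjusted p = 0.747) and gave no adjusted p for Ctxn1. Dlk1 was at 2.38 and 15.5 CPM against 183 and 193 CPM and fell by 4.29 ± 0.36. Prph, the neurofilament peripherin, had 3 UMIs in all members, a pooled ratio of 0.0468 (0.00962 to 0.138), and Slc10a4 had 1, a ratio of 0.0180 (0.000455 to 0.101). The other neurons include noradrenergic cells, and their noradrenergic marker list summed to 2388 and 1379 CPM against 23.8 and 61.9 CPM in members, where the rule caps 4 of its 8 genes. With cells high in noradrenergic genes, in the granule cell genes Gabra6, Cbln3 and Fat2 or in Prph and Pou4f1 left out of the other neurons, 115 of the higher and 182 of the lower calls remained, among 136 and 283. Calls lost there by edgeR included Slc10a4 (-2.49, adjusted p = 0.327) and Nxph1 (0.507, adjusted p = 0.0878). Those for Htr2c (0.41, edgeR adjusted p = 0.173) and Gria1 (0.497, edgeR adjusted p = 0.0821) were lost there too. The forebrain interneuron genes Lamp5 and Nxph1 rose by 2.46 ± 0.53 and 0.89 ± 0.14, and Lamp5 was not called with the stricter gate, Sncg and Chodl fell, and Pvalb, at 73.7 and 55.3 CPM against 62.4 and 76.6 CPM, was not called. Antisense partners of gate genes also rose, Gad1os by 3.56 and Gm14204 by 3.63, the first overlapping Gad1 and the second 43 bases from Slc32a1, so neither is independent of the rule.

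A narrower comparison set the same members against 40 glutamatergic cells, 6 and 34, with at least 2 Slc17a6 UMIs and 5 per 10000 and no gate UMI. It shares the inhibitory sums with the comparison above, so the results below are not independent of it. Zfpm2, Nfib, Nfix, Nrxn3, Cacna2d3 and Kctd16 were higher in the inhibitory neurons, and Cacna2d1, Meis2, Onecut2 and Dlk1 lower. The test covered 5017 genes and called 82 (1.63%), 37 of them higher (0.737%) and 45 lower (0.897%), and 81 had the same sign in both libraries. The glutamatergic sums were 77684 and 144694 UMIs, and the median log2 difference of all genes was 0.018. This fit too leaves 1 residual degree of freedom and shares its spread across genes. Its SEs and p-values, however small, thus do not measure how well the 2 libraries agree for a given gene. Zfpm2 was at 487 and 517 CPM against 0 and 41.5 CPM and rose by 4.30 ± 0.46 (edgeR adjusted p = 1.43e-17). Nrxn3 was at 618 and 1113 CPM in the glutamatergic cells and rose by 2.60 ± 0.27, and Cacna2d3 was at 25.8 and 152 CPM and rose by 2.64 ± 0.36. Pax2, Lhx5 and Slc6a5 had no UMI in the glutamatergic cells and were at least 4.42-fold, 4.25-fold and 3.65-fold higher. Megf11, an adhesion receptor, was at 143 and 168 CPM against none, at least 11.6-fold higher, from 7 and 28 members. Nfib rose by 2.99 ± 0.43, Nfix by 2.52 ± 0.49, Kctd16 by 2.22 ± 0.37 and the noncoding Sox2ot by 2.84 ± 0.45.

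Cacna2d1 was at 541 and 857 CPM in the glutamatergic cells and fell by 3.00 ± 0.31 (edgeR adjusted p = 3.37e-18). Dlk1, at 283 and 276 CPM there, fell by 4.83 ± 0.49, and Nrn1, a surface protein of neurites, by 4.22 ± 0.57. Meis2 was at 837 and 318 CPM and fell by 2.27 ± 0.31, with Meis1 and Onecut2 also lower. Grik1, a kainate receptor subunit, fell by 1.45 ± 0.31, and Glra3, a glycine receptor subunit at 90.1 and 89.8 CPM in the glutamatergic cells, by 2.22 ± 0.59. Reln and Calb2 fell by 1.70 ± 0.41 and 1.67 ± 0.43, but Reln was at -0.160 and not called with cells of 1 Slc17a6 UMI admitted. Gabrg3 was at 1223 and 359 CPM there, against 288 and 365 CPM in members, so its fall rested on library 1 and was 0.021 in the opposite direction without it. Abat, Penk, Sst and Oprm1 were not called. Calls in this comparison depended on few cells: 5 higher and 3 lower were left without the library block, and 6 and 5 in DESeq2, which gave no adjusted p for 10 of the higher and 6 of the lower calls and did not call Zfpm2 (adjusted p = 0.281). Nrxn3, Cacna2d1, Dlk1, Nfib and Nrn1 did not lose their call in these 2 alternatives.

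Among the inhibitory neurons, UMIs of the lineage factors were seen in part of the cells. Pax2, Pax5, Pax8, Lhx1 or Lhx5 had a UMI in 72 of the 165 cells (21 and 51), and Gata2, Gata3, Tal1, Tal2 or Sox14 in 12 (4 and 8). Both sets were seen in 4 cells and neither in 85. The cells with neither were shallower, with medians of 7304 and 2420 UMIs, below the 15248 and 3871 of the Pax and Lhx cells. Lhx1 and Lhx5 shared 14 cells, Pax2 and Lhx1 7, and Pax2 and Lhx5 5. Only 2 cells of library 1 and 6 of library 2 held the Gata set alone, too few for a test. Slc6a5 occurred with the Pax and Lhx set in 6 of its 8 cells in library 1 and 12 of 17 in library 2, beside 21 of 28 and 51 of 137 of all members, so in library 1 the share was that of all members. No Slc6a5 cell held a UMI of the Gata set, which with so few Gata cells and scarce transcripts shows no separation.

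**Figure D4:**
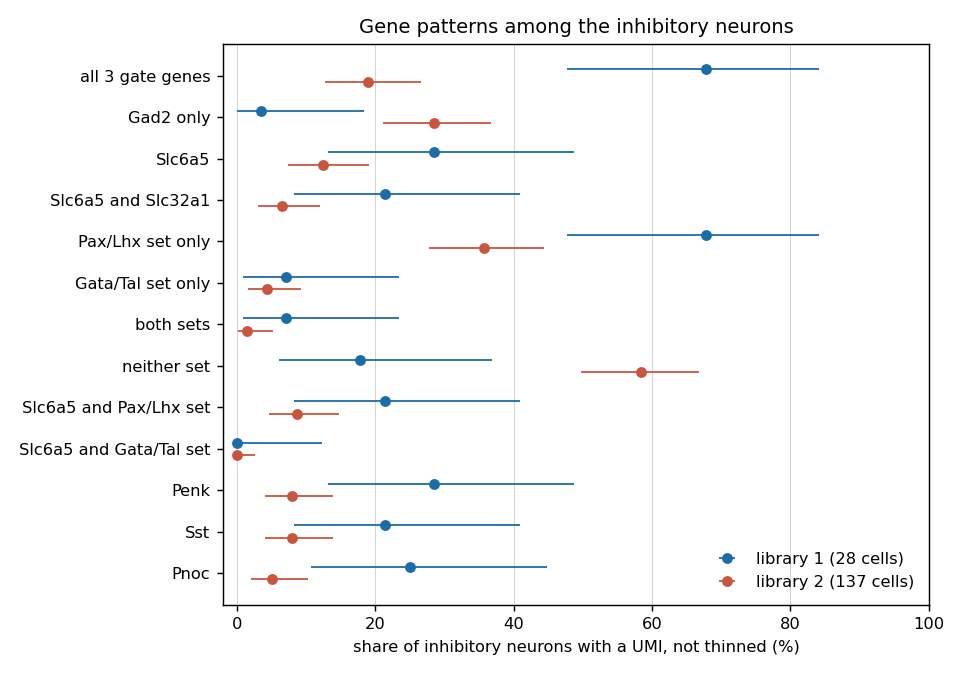
Share of the inhibitory neurons of each library (percent, 28 and 137 cells, not thinned) with at least 1 UMI of the genes named; points are shares and bars exact 95% binomial intervals. Cells with neither lineage set made up 17.86% in library 1 and 58.39% in library 2, where cells were shallower, and no cell joined Slc6a5 to the Gata set.

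Slc6a5-containing cells were described against the other members, 8 and 17 cells against 20 and 120, with no test since presence of 1 UMI depends on depth. Ebf3 was at 607 and 431 CPM with Slc6a5 and at 200 and 275 CPM without, Pvalb at 176 and 111 CPM against 30.5 and 43.1 CPM, and Zfhx3 at 24.0 and 197 CPM against 548 and 579 CPM. These genes are examples from a split of few cells. In library 1 only 11 members held Zfhx3, and 55 of its 165 UMIs lay in 1 cell. Cells with the Pax and Lhx set were likewise higher than the rest in Zfpm2, at 554 and 601 CPM against 193 and 443 CPM, and in Unc5c, at 481 and 662 CPM against 257 and 393 CPM. For Nfib and Nfix the order of these groups turned between libraries. Nfix was at 134 and 164 CPM with the set and at 77.3 and 292 CPM without.

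Depth and RNA quality bear on all these values. Median depth was 14168 and 2893 UMIs per cell in members against 15858 and 2609 in other neurons, and their mitochondrial medians were 3.78% and 4.74% against 2.37% and 4.47%. Gm42418 and Cmss1, which overlap ribosomal RNA repeats, took 19.0% and 12.7% of member UMIs and 15.4% and 10.4% of those of other neurons. Genes induced by dissociation were at 1207 and 904 CPM in members against 1273 and 1290 CPM, with Atf3 and Fosb lower and none of the 13 tested higher. Whether myelin RNA or these differences had a part in the results was not tested, beyond the values without such cells or features.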

How the data were processed

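The deposited matrices give raw counts of UMIs for each gene in each barcode. Cell Ranger 7.0, Seurat, mm10 and GRCm38 are named per the submitters' processing notes, whereas per the file headers Cell Ranger 6.1.2 wrote the files. The treatment of introns and strand in counting is not given in the sources used here. Of 32285 features, 99.85% matched GENCODE M21, which gave positions. The libraries shared 0 barcodes. The series states 2578 cells and no filter that would give them.

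The members and gene lists were chosen with earlier results of these data known. Cells were gated in Python 3.11.15 (numpy 2.4.6, pandas 2.3.3, scipy 1.17.1). No doublets were removed in the main setting. An alternative removed the highest Scrublet scores (scanpy 1.11.5), 1 of 295 and 60 of 2740 barcodes, among them 1 and 4 members. UMIs were summed per class and library and tested two-sided in edgeR 4.0.16 (limma 3.58.1, R 4.3.3) with filterByExpr, TMM factors and the library as a block, because both classes come from each library. SE is the log2 difference over the square root of F. Folds in single libraries use a prior of 2 counts. The 8 rule genes and the 4 neuronal genes were not tested. Genes were named by a fixed rule: the 10 largest rises and falls among calls at 20 CPM or more, called genes of each list at 10 CPM or more, and a short set always described. On simulated counts the fit recovered 83% of genes changed by a log2 of 2 and 30% of those changed by 1 (11338 genes, other neurons), and 77.8% and 9% (4994 genes, glutamatergic cells). False calls numbered 6 and 0. The changed genes were drawn from the better counted ones with a fixed spread, so these shares do not cover scarcer genes such as Pax2 and Slc6a5. Alternatives included DESeq2 1.42.0, which gave an adjusted p for 8186 genes. Lhx5, Zfpm2, Nfib and Pnoc have no promoter printed. Some genes that the rule names are not reported here.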

Additional observations from a re-analysis of the deposited data

How the results depend on the processing

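Against other neurons the main counts were 159 higher and 269 lower. They became 290 and 511 with 2 of the 3 gate genes per cell, 67 and 95 in DESeq2 (which gave no adjusted p for 6 and 14 of the calls), 420 and 678 with Slc17a6 allowed under 2 per 10000, 417 and 621 without cells of high myelin, 313 and 488 without gate UMIs in other neurons, 268 and 749 without a low-count filter, and 6 and 8 of 1232 genes with cells thinned to 500 UMIs. Doublet removal gave 250 higher and library size alone 489 lower, and no other setting moved either count by over 1.5 times. Pvalb turned to 0.929 (adjusted p = 0.0430) with the gate of 3 UMIs and 10 per 10000. Without the replicate block, 117 and 196 genes were called, and calls were lost for genes including Gabre, Gabrg1, Prox1, Calca, Chrnb3, Htr2c, Gria1, Grik1 and Cacna2d2. DESeq2 lost 14 named calls and the stricter gate 10. Thinning lost 10, among them Nfib, Nxph1 (0.112), Kcnb2 (-0.486), Unc5c, Kctd16, Meis2 and Grm8. Only 5 other named genes could be tested after thinning, and their result stayed the same. The rest of the named genes were not tested at that depth.

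Against glutamatergic cells the main counts were 37 and 45. They became 3 and 4 with 2 of the 3 gate genes, 6 and 5 in DESeq2, 6 and 5 with the gate of 3 UMIs, 254 and 450 with 1 Slc17a6 UMI admitted (27 and 33 shared), 20 and 26 with library size alone, 5 and 3 without the replicate block, and 2 and 0 of 155 genes thinned. Without a filter 25 were lower. Pvalb was called higher in the main fit, with no UMI in the glutamatergic cells. With 1 Slc17a6 UMI admitted Pvalb turned to -0.980 and Gabrg3 to 0.241, and Gabrg3 ranged from -2.06 without library 2 to 0.021 without library 1. The cause was not tested, except that thinning and fewer cells leave fewer genes to test.

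Leaving out a library leaves no residual degree of freedom, so it gave values and no calls. Of all called genes, Gabrg3 alone changed sign with a library left out. Against other neurons, Slc6a9, Penk, Pvalb, Hcrtr2 and Oprm1, none of them called there, had opposite signs in the 2 libraries. Against glutamatergic cells Penk and Sst, also not called, did so. The comparison of Pax and Lhx cells with Gata cells could not be fitted, with 2 Gata-only cells in library 1. In library 2 the median member had 2893 UMIs, so absence of a scarce transcript there is not detectable. No scaling moved the median of all genes by over 0.1; only dropping the filter did, to -0.314 and 0.36.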

Other observations

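The genes most uneven from cell to cell among the inhibitory neurons, by variance beyond counting noise in 2300 genes with at least 30 UMIs in each library, were led by Cmss1 and Gm42418, which overlap ribosomal RNA repeats. Long neuronal genes and mitochondrial transcripts such as mt-Co1 and mt-Co3 followed in mixed order. Pcdh9, a protocadherin, came next after the first pair by mean rank and had 208 of its 2054 UMIs in 1 cell of library 1 and 187 of 2269 in 1 cell of library 2. Adarb2, an RNA-editing enzyme gene that marks a group of interneurons in the cortex, was seen in 21 of 28 and 63 of 137 members, with up to 74 and 39 UMIs in a cell. Rbfox1, Kcnip4, Cntn5, Lsamp, Opcml and Cntnap2 were also among the leading genes in both libraries. These ranks describe the cells and carry no test.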
